A study of Mus musculus with 2 samples.

Results

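The Plagl1 and Gpc3 myogenic progenitors are 745 of 3287 kept cells from regenerating mouse muscle, 107 among 604 GFP+ cells and 638 among 2683 GFP- cells. They were chosen by measured counts: cells without a macrophage, mural, Myog, cycling or Erfe signature, with at least 5 UMIs (unique molecular identifiers, 1 per captured transcript) of Plagl1, Gpc3 and Gxylt2 together per 10000 UMIs, and with fewer than 30 of Spp1, Fn1 and Tnc together. These cells are called members below. Because the rule used these genes, their levels in members are a description of the choice. Cells that pass the same gates with a marker sum under 5 are called marker-low (138 GFP+ and 588 GFP- cells), and cells at 30 or more of the matrix sum are called matrix-high (60 and 456 cells).

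Satellite cells, the stem cells of skeletal muscle, came from injured mice titled Pax3GFP/+: 5 days on, biceps and recto femoris were dissociated and the cells sorted by GFP. In these animals GFP reports Pax3, a paired-box transcription factor present in some satellite cells. The genotype field of both samples reads wild-type while their titles give Pax3GFP/+, and no age, sex, number of animals or type of injury was used here. By their titles both groups carry the Pax3GFP/+ alleles, and both were injured. The GFP+/PAX3+ and GFP-/PAX3- fractions each gave 1 droplet 3′ library from 20000 loaded cells. With 1 library per group no test between the fractions was possible. Intervals are at 95% and reflect only the error of counting, and cells of 1 library are not replicates.

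Plagl1 encodes a zinc finger transcription factor expressed from the paternal allele and placed by textbook accounts in a network of imprinted growth genes with Igf2, H19 and Cdkn1c. Gpc3 encodes a glypican, a cell surface heparan sulphate proteoglycan that binds Hedgehog, Wnt and growth factor ligands. Gxylt2 encodes a xylosyltransferase that extends O-glucose on Notch repeats, and Itm2a a small membrane protein of muscle precursors. In regenerating muscle, activated satellite cells either go on to Myod1 and Myog expression and fuse, or return to a Pax7-positive, Notch-dependent quiescent state.

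The bases before the start sites of the genes the cells are named for are shown because both stretches hold more CpG than most promoters. CpG is the dinucleotide that can be methylated, and capitals mark each CpG. They are RefSeq sequence of GRCm38.p6, read 5′ to 3′ on the gene's strand, from chr10:13090582-13090831 (plus strand) and chrX:52613975-52614224 (minus strand).
Plagl1: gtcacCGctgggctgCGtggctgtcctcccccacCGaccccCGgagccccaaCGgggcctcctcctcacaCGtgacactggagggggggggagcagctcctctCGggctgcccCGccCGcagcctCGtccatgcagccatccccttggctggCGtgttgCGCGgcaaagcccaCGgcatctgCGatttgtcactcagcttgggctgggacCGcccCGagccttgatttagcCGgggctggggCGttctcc
Gpc3: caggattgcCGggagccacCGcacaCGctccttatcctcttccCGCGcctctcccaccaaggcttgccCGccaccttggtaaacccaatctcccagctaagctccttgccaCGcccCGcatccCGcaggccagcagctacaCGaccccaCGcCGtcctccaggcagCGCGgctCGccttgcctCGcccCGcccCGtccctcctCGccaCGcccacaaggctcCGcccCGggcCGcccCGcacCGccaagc
Plagl1 had 19 CpG and Gpc3 25 CpG in 250 bases, against 10 for Gxylt2, 6 for Itm2a and a median of 6 over 32851 promoters. The upper quartile was 16, and 80.3% of promoters held fewer CpG than Plagl1 and 89.3% fewer than Gpc3. The sequence GGGGCCCC, which reads the same on both strands, lay in the same window of 2 of 30 imprinted genes with an entry (Peg3 and Rasgrf1) and of 1.03% of all genes, and in none of the 4 marker genes. These counts describe the reference and no methylation was measured.

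Members held a median of 19154 UMIs (GFP+) and 12434 UMIs (GFP-), close to marker-low cells (20328.5 and 13570.5) and below matrix-high cells (24337.5 and 16765.5). The median mitochondrial share in members was 2.89% and 4.92%. Members made up 17.7% of kept GFP+ cells (exact interval 14.8% to 21.0%) and 23.8% of kept GFP- cells (22.2% to 25.4%). Among cells past the macrophage and mural gates the shares were 20.2% (16.9% to 23.9%) and 25.4% (23.7% to 27.1%), intervals that overlap slightly. Those cells include the Erfe-high class, which made up 19.1% of them in GFP+ and 1.71% in GFP-. The member shares therefore also depend on how many Erfe-high cells each fraction held. With Erfe-high, Myog-high and cycling cells gated out as well, 107 of 305 GFP+ and 638 of 1682 GFP- cells were members. No difference in members between the fractions is read from these shares. In addition, 2 kept barcodes occur in both libraries, 1 of them a member. The doublet caller scrublet called no member a doublet (3 calls among 604 and 3 among 2683 cells), so doublets were in effect not removed. Empty droplets of 1 to 100 UMIs carried 1397718 and 3365381 UMIs and give the free RNA level quoted beside low genes.

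The myogenic label was checked against marker genes. Levels are in CPM, the UMIs of a gene per 1000000 UMIs of the class. The 10 myogenic markers summed to 3110 (GFP+) and 2740 (GFP-) CPM in members. They summed to 1969 and 2234 in empty droplets, 2576 and 2362 in marker-low cells and 13.7 and 510 in macrophage-gated cells. Erfe-high cells held more of them than members did, at 4150 and 3251. Pax7 had a UMI in 98.1% and 92.6% of members and Myf5 in 94.4% and 90.8%. Pax7 had a UMI in 1.33% and 8.77% of macrophage-gated cells, whose median depths were 13545 and 8086 UMIs. Markers of other types stood low in members: the 8 macrophage markers summed to 10.2 and 6.41 CPM with Ptprc at 0 in both libraries, the 8 endothelial markers to 8.27 and 7.01 with Kdr, Emcn and Flt1 at 0, and all 7 T and NK cell markers were at 0. The 8 mural markers summed to 254 and 255 CPM, nearly all of it Notch3, which satellite cells also express. The 8 fibro-adipogenic markers summed to 1393 and 1055, mostly Col3a1. However, 1 GFP+ and 1 GFP- member held Dcn, Lum, Mfap5 and Pdgfra at 5 or more per 10000 UMIs and had no Pax7, Myf5 or Cdh15 UMI. For named genes with over 10% of their UMIs in 1 of these cells, values without the pair stand beside the results they touch. Ratios to marker-low cells without the pair also leave out the 1 GFP+ and 2 GFP- marker-low cells of that kind.

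By the rule, Plagl1 stood at 392 (GFP+) and 486 (GFP-) CPM in members, against 94.0 and 91.3 in marker-low cells. Gpc3 stood at 347 and 322 against 63.3 and 51.2, and Gxylt2 at 201 and 199.9 against 41.4 and 43.9. Itm2a was no rule gene and stood at 2112 and 2359 against 1105 and 1069. Itm2a was higher in members than in each other class of either library. Per member it ran from 0 through a median of 18.9 to 46.3 per 10000 UMIs in GFP+ and from 0 through 22.2 to 106 in GFP-, and the cells of marker-low overlapped that range (highest 54.6 and 61.9). The marker sum had a median of 8.66 and 8.91 per 10000 and ran from 5.02 to 38.7 and from 5.00 to 37.3. The limit fell within a continuum: 17 GFP+ and 83 GFP- members lay within 1 unit above the limit, and 21 and 86 marker-low cells within 1 unit below it. All 3 rule genes were seen in 79.4% and 71.2% of members, against 14.5% and 11.9% of marker-low cells. Gxylt2 was lower in Erfe-high cells than in members in GFP+ (172 against 201) and higher in GFP- (244 against 199.9). Plagl1 (41.9 and 101) and Gpc3 (18.6 and 52.7) were low in Erfe-high cells. The GFP- Erfe-high class held only 43 cells, at a median of 3726 UMIs. Its 8 glial markers summed to 747 CPM and its 8 endothelial markers to 220, against 3.11 and 18.6 in GFP+ Erfe-high cells. Its Gxylt2 level is therefore uncertain.

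**Figure D1:**
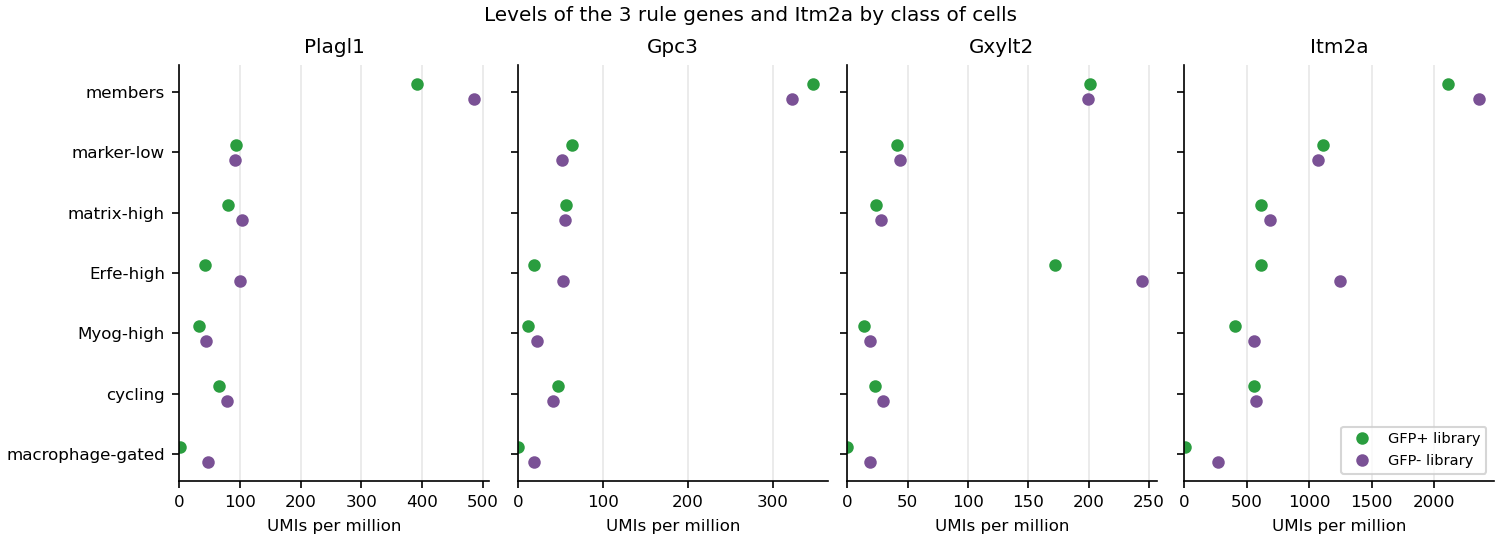
Points give summed CPM of Plagl1, Gpc3, Gxylt2 and Itm2a (x axes) in each class of cells (y axis) for the GFP+ and GFP- libraries. Members are highest for Plagl1, Gpc3 and Itm2a in both libraries, while Gxylt2 reaches 172 and 244 in Erfe-high cells.

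Members also lay near each other when the rule genes were left out. Among the 15 nearest neighbours in 30 principal components without those genes, 72.3% (GFP+) and 71.6% (GFP-) were members, where members are 24.5% of the cells placed. Marker-low cells were the next most frequent neighbours (18.9% and 20.2%), then matrix-high cells (4.61% and 6.06%). Members were the most frequent class among the neighbours of 81.3% and 81.2% of members, and of 19.6% and 18.9% of marker-low cells. This closeness was not particular to members. The share of neighbours from the cell's own class was 84.8% and 80.0% for Myog-high, 73.1% and 77.5% for cycling and 74.5% and 52.7% for Erfe-high cells. It was 59.2% and 61.9% for matrix-high and 39.1% and 40.6% for marker-low cells. GFP- cells were 73.6% of the neighbours of GFP+ members and 86.5% of those of GFP- members, where 529 GFP+ and 2514 GFP- cells were placed. Cells of 1 library share depth and free RNA, and the part of these in the shares was not tested.

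The first comparison set members beside marker-low cells within each library, which asks what accompanies the marker genes. The sets also differed in genes of the gates. The median sum of Spp1, Fn1 and Tnc, in the units of the rule, was 0.945 (GFP+) and 1.88 (GFP-) in members. In marker-low cells it was 2.03 and 6.68. Without the fibroblast-gene pair, ratios to marker-low cells were 0.150 and 0.159 for Myog and 0.309 and 0.481 for Spp1. The part of this shift in the ratios below was not tested. A gene was counted as past the size rule at 20 CPM or more in 1 of both sets and a ratio of at least 1.5 in the same direction in both libraries. Of 5475 genes, 126 (2.3%) were higher and 124 (2.26%) lower in members, and the median log2 ratio over all was -0.02 in each library. At 1.5-fold in the GFP+ library alone 5.08% were higher and 5.29% lower, and in the GFP- library alone 4.09% and 4.46%. Because the gates chose the cells by counts from the same libraries, these numbers describe the cells and are not a test.

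Imprinted genes, expressed from 1 parental allele, stood higher as a group in members than in marker-low cells. Erfe-high cells were not compared here, and Meg3 stood higher in them than in members. Of 17 imprinted genes measured outside the rule, 8 were higher and 0 lower, with a median log2 ratio of 0.65 (GFP+) and 0.58 (GFP-). Igf2, the fetal insulin-like growth factor, stood at 447 CPM in GFP+ members and 161 in GFP+ marker-low cells, a ratio of 2.78 (2.47 to 3.12). In the GFP- library it stood at 328 and 85.3, a ratio of 3.84 (3.53 to 4.18). H19, the noncoding RNA beside Igf2, stood at 446 against 140 (3.20, 2.83 to 3.61) and 384 against 169 (2.27, 2.13 to 2.42). Without the fibroblast-gene pair, which held 100 of 917 GFP+ UMIs of H19, its ratios were 2.84 and 2.24. Both libraries therefore had Igf2 and H19 higher in members, though H19 lay near its empty-droplet level (404 and 338). Igf2 and H19 were both seen in 62.6% and 63.6% of members, and neither in 15.9% and 11.6%. Both were seen in 25.4% and 27.9% of marker-low cells. Cdkn1c, an inhibitor of cyclin-dependent kinases, stood at 1971 and 2832 against 1253 and 1347. Gnas, the stimulatory G protein alpha subunit, stood at 4715 and 4663 against 2615 and 2458. Peg10 and Kcnq1ot1 were the other members of the list past the rule, with ratios of 1.64 and 1.74 for Peg10; at a marker sum of 10 or more the GFP+ log2 ratio of Peg10 was -0.18. Mest, Peg3 and Grb10 had ratios between 1.16 and 1.29 and did not reach the size rule.

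**Figure D2:**
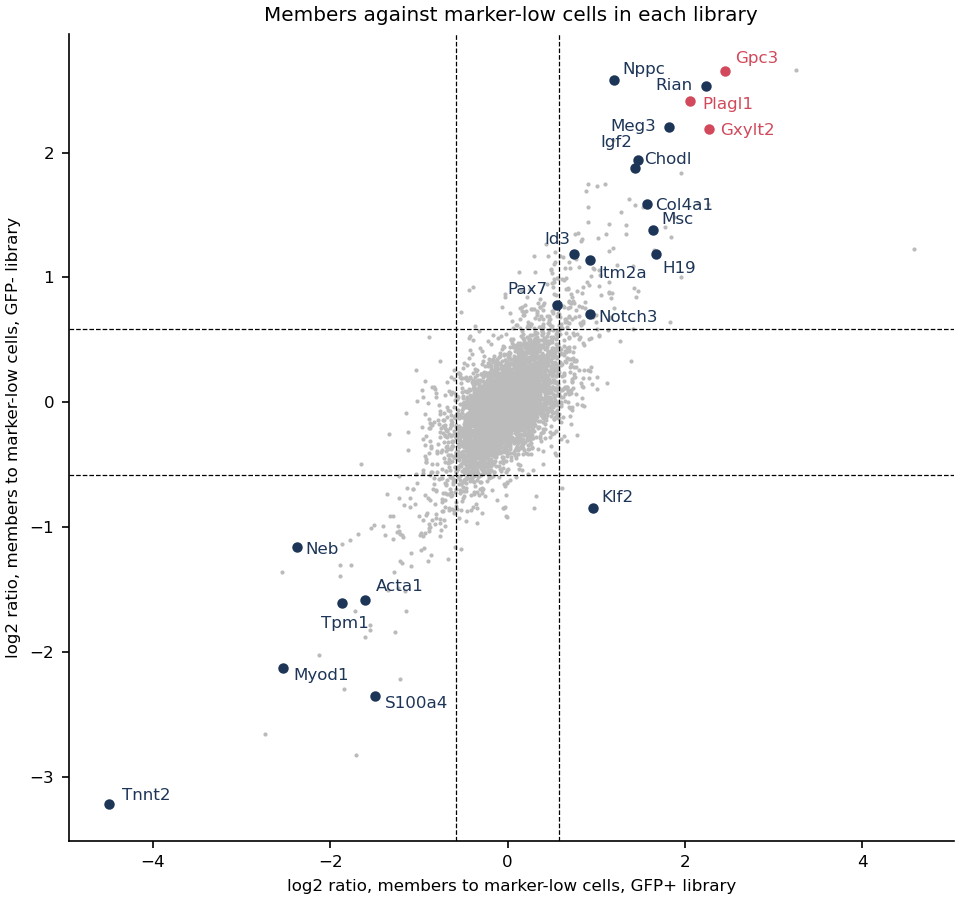
Each point is 1 gene, with the log2 ratio of members to marker-low cells in the GFP+ library (x axis) against the GFP- library (y axis), and dashed lines mark the 1.5-fold limit. Rule genes are red, named genes outside the rule are blue, and Klf2 is the named gene that lies on opposite sides (0.96 and -0.85).

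Most regulators of the satellite cell state did not reach the size rule, where over all genes 2.3% were higher and 2.26% lower. Of 18 myogenic transcription factors measured, 3 were higher (Id2, Id3 and Msc) and 2 lower (Myod1 and Hes6), and 13 did not reach it; the median log2 ratio was 0.14 in each library. Msc, a repressor of myogenic basic helix-loop-helix factors, stood at 396 and 318 CPM against 127 and 122, ratios of 3.11 (2.74 to 3.54) and 2.60 (2.42 to 2.80). Id3, which blocks the same family, stood at 537 and 430 against 320 and 189. Myod1, which drives commitment, stood at 13.1 and 16.3 against 76.2 and 71.2, with ratios of 0.172 (0.111 to 0.258) and 0.229 (0.189 to 0.277). Its level in members lay below that of empty droplets (68.0 and 76.7). After thinning every cell to 5000 UMIs, omitting 4 shallower members in GFP+ and 20 in GFP-, Myod1 had a UMI in 10.7% and 5.83% of members and in 17.6% and 19.8% of marker-low cells. The unthinned shares were 14% and 10.2% against 37.0% and 34.4%. Pax7 and Myf5, which mark the myogenic stem cell, were higher in members by 1.48 and 1.72 (Pax7) and by 1.61 and 1.36 (Myf5). Neither reached the size rule in both libraries.

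Genes of quiescent satellite cells were higher than in marker-low cells for 4 of 17 measured (Chodl, Tenm4, Heyl and Notch3) and lower for 0. Erfe-high cells were not part of this comparison, so no gene here is read as particular to members. Chodl, a C-type lectin-like surface protein, stood at 410 and 312 CPM in members and 151 and 85.2 in marker-low cells. Its ratios were 2.71 (2.41 to 3.06) and 3.66 (3.37 to 3.98). Among Notch genes 3 of 11 were higher (Notch3, Jag1 and Heyl) and 1 lower (Hes6). Notch3, a Notch receptor, had ratios of 1.91 and 1.64, and Heyl, a Notch target, 1.68 and 1.74. Hes1, another target, had ratios of 0.933 and 1.24, and Calcr, a quiescence receptor, stood at 18.5 and 8.34 CPM, under the level counted. The list shared Notch3 and Heyl with the quiescence list.

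Of 32 matrix genes outside the rule, 8 were higher (Col4a1, Col4a2, Lama2, Lamb1, Lamc1, Nid2, Timp3 and Adamts5) and 1 lower (Timp1). Col4a1, a chain of basement membrane collagen, stood at 590 and 483 against 198 and 161, ratios of 2.98 (2.69 to 3.30) and 3.01 (2.83 to 3.20). Col4a2, its partner chain, had ratios of 2.72 and 2.99. Col1a1 and Col3a1, interstitial collagens, had ratios of 0.766 and 1.05 and of 1.24 and 1.46. Timp1, a protease inhibitor, had ratios of 0.564 and 0.634. The 8 higher genes were thus 6 basement membrane chains or nidogen, the protease Adamts5 and the protease inhibitor Timp3, while Col1a1 and Col3a1 did not reach the size rule. At a marker sum of 10 or more the GFP+ log2 ratio of Nid2 was -0.063.

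Genes of differentiation and contraction were lower for 9 of 13 measured and higher for 0, with median log2 ratios of -1.29 and -1.06. Tnnt2, cardiac troponin T, expressed in differentiating muscle, stood at 2.92 and 11.7 CPM in members against 65.9 and 109, both below its empty-droplet level (228 and 318). Neb, the thin filament ruler nebulin, stood at 25.8 and 64.6 against 134 and 144. Acta2, smooth muscle actin, stood at 393 and 379 against 1003 and 1071. Chrna1, the acetylcholine receptor subunit, had ratios of 0.438 and 0.479. The gate gene Myog was lower in members as well. The ratios of these genes and of Myod1 are therefore not read as following the marker sum alone. Of 9 proliferation genes 2 were lower and 0 higher (Stmn1 and H2afz), though cycling cells had been gated out by other genes. Integrins (0 of 13 in each direction) and interferon response genes (0 of 12) had none past the rule. Over all genes only 2.3% were higher and 2.26% lower, so nothing is read from a 0 in lists this short.

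**Figure D3:**
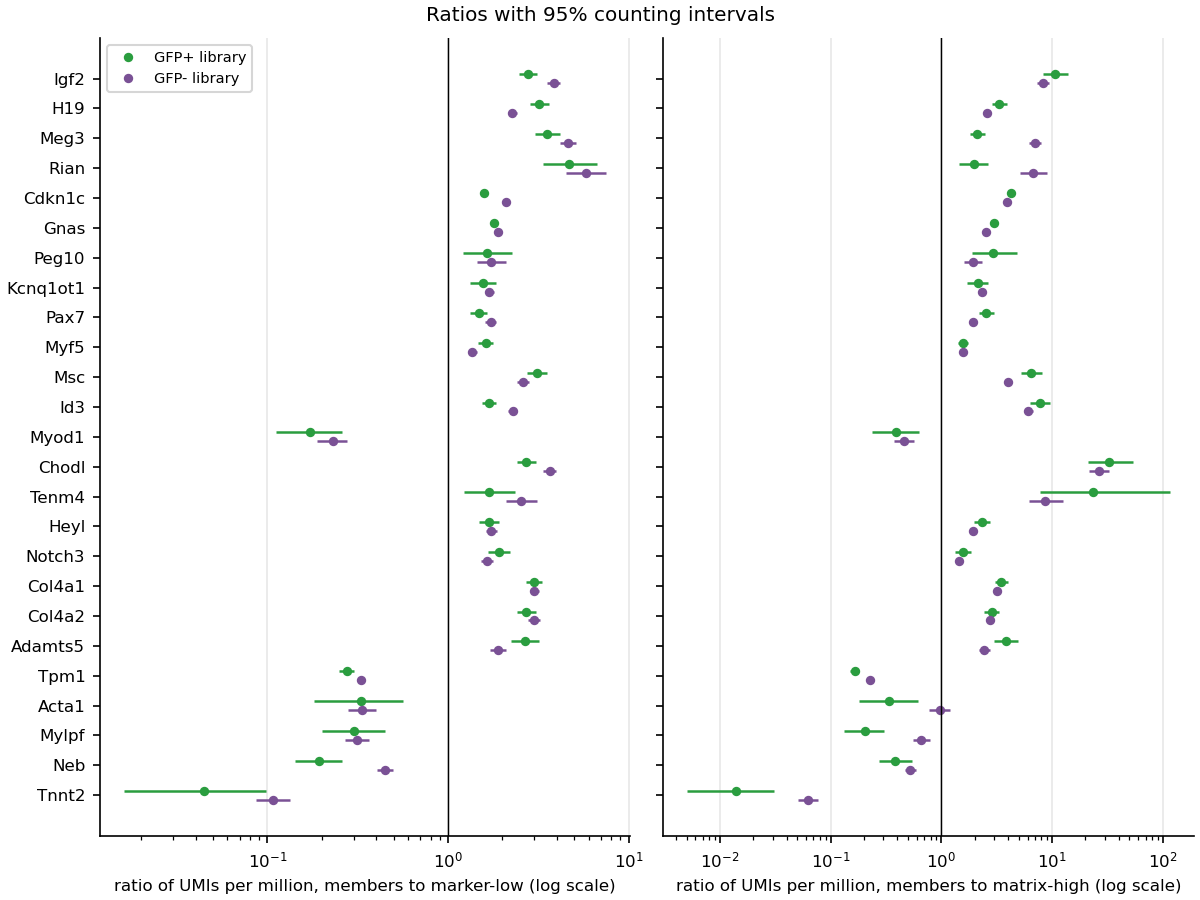
Ratios of CPM (log scale) of members to marker-low cells (left) and to matrix-high cells (right) for named genes, with 95% counting intervals, for the GFP+ and GFP- libraries. Imprinted, quiescence and basement membrane genes lie above 1 against marker-low cells, and Myod1 and the contractile genes below 1.

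In the signalling lists most genes did not reach the size rule, where over all genes 2.3% were higher and 2.26% lower. In the insulin-like growth factor axis 2 of 12 were higher (Igf2 and its receptor Igf1r) and 1 lower (Igfbp6, a binding protein). Igf1r stood at 109 and 96.6 CPM against 71.4 and 64.1, and Igfbp6 at 10.7 and 10.2 against 25.9 and 36.3. The ratios of Igfbp6 were 0.413 and 0.279, and 0.366 and 0.312 without the fibroblast-gene pair. Of 16 glypican, heparan sulphate, Wnt and Hedgehog genes outside the rule, 2 were higher and 0 lower: Fzd4, a Wnt receptor, had ratios of 2.68 and 2.13, and the ligand Wnt4 had 1.74 and 2.55. Growth factor receptors were higher for 2 of 13 (Egfr and Tgfbr3), G1 regulators for 2 of 15 (Cdkn1c and Cdkn2d) and immediate-early genes for 1 of 20 (Myc), each with 0 lower.

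The ranking of all genes named further genes. Nppc, the precursor of C-type natriuretic peptide, stood at 38.4 and 50.3 CPM against 16.7 and 8.40. Aldh1a1, which makes retinoic acid, stood at 27.2 and 21.2 against 7.40 and 7.56. Col6a6, a collagen VI chain, stood at 44.3 and 33.4 against 9.99 and 11. Ccl11, the eosinophil chemokine eotaxin, had the highest ranked ratio, 9.57 in the GFP+ library, but 41 of 51 of those UMIs came from the fibroblast-gene member. Without such cells its GFP+ ratio was 3.27 (0.944 to 14.3), while in the GFP- library 169 UMIs came from 40 members and the ratio was 6.31. Lower genes included S100a4, a calcium-binding protein (226 and 181 against 637 and 922), and Tpm1, tropomyosin (232 and 314 against 843 and 955). Cenpa, a centromeric histone, and Scx, a tendon transcription factor, were lower as well.

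Within members, levels were also set beside the marker sum, for genes named above. Members were divided into 3 groups of equal size by marker sum (36, 36 and 35 GFP+ cells; 213, 213 and 212 GFP- cells), with median depths between 18707 and 20841 UMIs (GFP+) and between 12386 and 12563 UMIs (GFP-). From the lowest to the highest group, Igf2 stood at 220, 446 and 662 CPM in the GFP+ library. In the GFP- library it stood at 222, 299 and 464. Chodl went from 277 to 483 and from 247 to 439, and Col4a1 from 515 to 683 and from 351 to 655. Myod1 went from 24.0 to 2.83 (16 and 2 UMIs) and from 27.4 to 6.96 (77 and 19 UMIs), and Acta2 from 613 to 230 and from 466 to 289. Heyl and Notch3 spanned less (Heyl 240, 262 and 325 in GFP+, and 253, 284 and 277 in GFP-). Pax7 stood at 334, 357 and 374 in GFP+, and at 246, 296 and 330 in GFP-. Cdkn1c did not rise evenly in GFP+ (1744, 1463 and 2677), while in GFP- it stood at 2348, 2540 and 3621. The groups were cut by the same sum that the rule used, and every group held cells from the same libraries. The levels are therefore a description with no test and no separate evidence for the choice.

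The second comparison set members beside matrix-high cells, which the rule separates by Spp1, Fn1 and Tnc. Of 5600 genes, 323 (5.77%) were higher and 349 (6.23%) lower in members. Chodl was the highest ranked, at 410 and 312 CPM against 12.5 and 11.8, ratios of 32.8 (21.1 to 53.9) and 26.5 (21.6 to 32.9). Edn3, an endothelin, stood at 36.5 and 31.0 against 0.626 and 2.26, with 1 UMI in the GFP+ matrix-high cells (ratio interval 10.2 to 2333). Bmp6, a bone morphogenetic protein, stood at 54.9 and 44.7 against 1.25 and 3.51. Imprinted genes were higher for 12 of 18 and lower for 0, and quiescence genes for 9 of 18 and lower for 0. Tnnt2 was among the lowest ranked, at 2.92 and 11.7 against 209 and 186. Genes of the immediate-early response were higher for 8 of 20 and lower for 0: Egr1, a zinc finger factor induced within minutes of stimulation, stood at 443 and 417 against 68.8 and 76.9. Dissociation also induces such genes, and its part was not tested. Apoe, the lipid carrier, stood at 449 and 521 against 53.2 and 41.2, below the empty droplets' 3971 and 936.

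Meg3, a maternally expressed noncoding RNA, was uneven among members. It had a UMI in 27 of 107 GFP+ members (25.2%, 17.3% to 34.6%) and 176 of 638 GFP- members (27.6%, 24.2% to 31.2%). After thinning the shares were 24.3% and 24.4%, and in marker-low cells 13% and 8.60%. A positive member held a median of 16 UMIs (GFP+) and 9.5 UMIs (GFP-), with highest values of 106 and 65. The other classes were uneven as well. Positive marker-low cells held medians of 6 and 3 UMIs, with highest values of 37 and 40. In matrix-high cells the medians were 3 and 2 and the highest values 80 and 68. Thus many members without Meg3 stood beside members with many UMIs of it, and the level of 276 and 282 CPM (78.1 and 61.1 in marker-low cells) is an average over both. Of the GFP+ UMIs 96 of 568 lay in the fibroblast-gene cell, and without the pair the levels were 232 and 278 CPM and the ratios to marker-low cells 3.55 and 4.54. Rian had ratios of 4.25 and 5.68 without it. Rian, a noncoding RNA of the same locus, was seen in 19 of 27 and 120 of 176 positive members and in 1 and 2 members without Meg3.

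Members with 3 or more Meg3 UMIs (21 and 139 cells without the fibroblast-gene pair) were set beside members with none (80 and 462 cells). Their median depths were 19471 and 19248.5 UMIs (GFP+) and 12525 and 12416 (GFP-). Of 5408 genes outside the rule, 24 (0.444%) were at least 1.5-fold higher and 37 (0.684%) lower in both libraries. Meg3 itself, which chose the cells, stood at 1112 and 1236 CPM in them; in Erfe-high cells the class level was 1286 and 1240. Rian stood at 304 and 224 against 0.640 and 0.333. Col15a1, a basement membrane zone collagen, stood at 93.5 and 34.7 against 8.96 and 3.33, though its UMIs came from 8 and 27 of these cells. Edn3 stood at 64.7 and 51.8 against 28.8 and 23.0. C1qtnf3, a secreted C1q and TNF related protein, was lower at 228 and 353 against 632 and 653, and Fbxo32, the muscle ubiquitin ligase atrogin-1, at 12.0 and 21.0 against 58.2 and 47.7. Among the rule genes Plagl1 had ratios of 1.05 and 1.05, Gpc3 1.34 (1.12 to 1.59) and 1.11 (1.01 to 1.22), and Gxylt2 1.39 (1.10 to 1.73) and 1.16 (1.03 to 1.30). Pax7 had 0.997 and 1.11, and Igf2 had ratios of 1.98 (1.72 to 2.28) and 1.49 (1.37 to 1.63). Igf2, the rule genes and Pax7 were picked here after their values were seen.

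**Figure D4:**
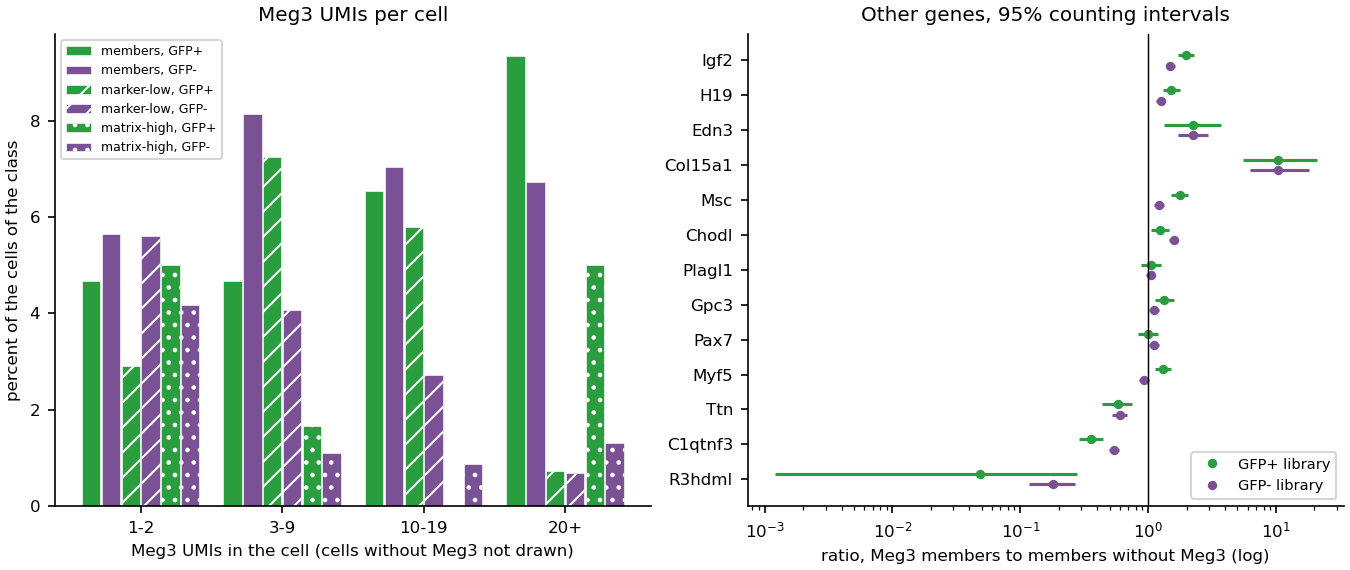
Left, the percentage of cells (y axis) by number of Meg3 UMIs in the cell (x axis) for members, marker-low and matrix-high cells of both libraries. Right, ratios (log scale, 95% counting intervals) of members with 3 or more Meg3 UMIs to members with none; Gpc3, Igf2 and Col15a1 lie above 1 and C1qtnf3 and R3hdml below it in both libraries.

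The third comparison set the sorted fractions side by side within members, on genes the rule did not use. Of 5747 genes, 54 (0.94%) were at least 2-fold higher and 15 (0.261%) lower in GFP+ members. The same rule gave 76 (1.32%) and 17 (0.295%) in marker-low cells, and 30 of the 54 and 5 of the 15 were also past it there. In matrix-high cells 78 (1.34%) and 26 (0.446%) were past it. The feature H2BGFP-2A-TVA-2A-B19G, whose name includes GFP and whose construct the labels do not describe, had 128 UMIs in GFP+ members (62.2 CPM) and 0 in GFP- members. Its ratio was 172 when the 0 is set to 3 counts for the whole group. Without the fibroblast-gene pair the lower limit of the ratio interval was 139. Among members it was thus seen in the GFP+ library and not in the GFP- library, and its relation to the Pax3 allele is not stated. Pax3 stood at 26.7 against 6.41 CPM, a ratio of 4.17 (2.81 to 6.21), with 55 UMIs in 40 members and 53 UMIs in 47 members. It was 4.11 in marker-low cells. Six2, a homeobox factor, had 3.15 (2.16 to 4.56), and 2.61 in marker-low cells. Polr2l, an RNA polymerase subunit, had 4.02 (3.18 to 5.09) and 4.16. The sort ratios of these 3 genes were therefore of like size in marker-low cells, and no test of a difference was possible.

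Other high ratios rested on few cells. Dcn (76 UMIs), Lum (44) and Thbs4 (44) had ratios of 11.3, 12.6 and 22.1 in members, but 74, 43 and 44 of their UMIs came from the 1 fibroblast-gene GFP+ member. Without the fibroblast-gene pair the ratio of Dcn was 8.13 (0.423 to 480), from 2 UMIs and 1 UMI. Lum then had 1 UMI in GFP+ and 0 in GFP- members and Thbs4 had 0 in both, too few for a ratio. Ptx3, pentraxin 3, had 7.06, and 3.66 (2.27 to 5.89) without it. Fam83a had 61 UMIs in 4 GFP+ members, and Olfr1369-ps1 had 56 UMIs in 6. Klf2 had 3.36, and 0.635 (0.407 to 0.956) without the pair. Kcnq1ot1, the imprinted antisense RNA, had UMIs in 73 GFP+ and 534 GFP- members and stood at 160 against 356 CPM (0.451, 0.401 to 0.506) and had 0.490 in marker-low cells. Parm1, with 17 UMIs in 11 GFP+ members, had 0.312 (0.179 to 0.511) and 1.07 in marker-low cells, and Neb 0.399 (0.295 to 0.530) and 0.926. The rule set the same limit on Plagl1, Gpc3 and Gxylt2 in both fractions, so their sort ratios (0.808, 1.08 and 1.0) are given as a description of the choice and nothing is read from them. Igf2 had 1.36 (1.26 to 1.47), and 1.36 without the fibroblast-gene pair. H19 had 1.16 (1.08 to 1.25), and 1.07 (0.986 to 1.15) without the pair, an interval that includes 1. Meg3 had 0.980 (0.893 to 1.08), and 0.837 (0.757 to 0.925) without it.

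**Figure D5:**
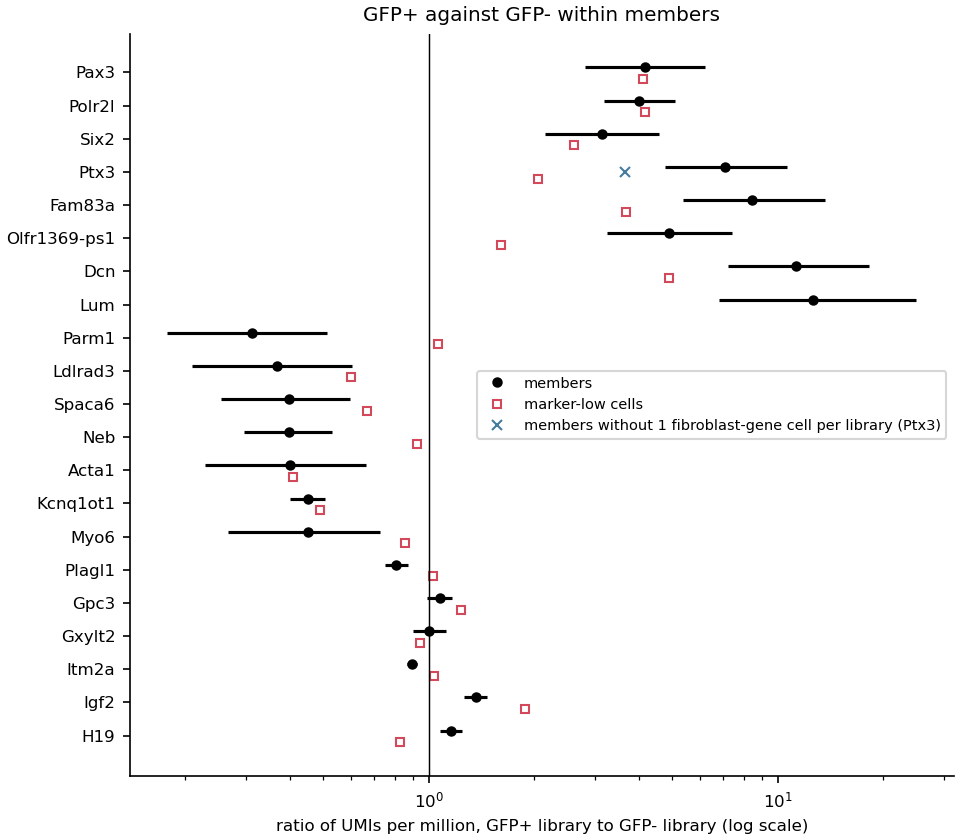
Ratios of GFP+ to GFP- CPM (log scale) in members (black, 95% counting intervals) and in marker-low cells (red squares), with Ptx3 also without the fibroblast-gene cells (blue cross). Pax3, Six2 and Polr2l lie above 1 in both classes; Plagl1, Gpc3 and Gxylt2 are drawn for reference, since the rule held them to 1 limit in both fractions.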

How the data were processed

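The 2 droplet libraries, 1 per sorted fraction, were analysed from the authors' deposited raw UMI counts over 32286 features and all barcodes. Per the file headers the matrices were written by version 4 of Cell Ranger. Seurat and mm10 appear in the submitters' processing notes, with no settings. The libraries held 13928952 (GFP+) and 49709323 (GFP-) UMIs. The minimum was 1000 UMIs and 500 genes per barcode, and the mitochondrial limit 10%. The 8 gates of the rule, 34 genes in all, were applied per 10000 UMIs. The members and gene lists were chosen with earlier results of these data known, so nothing here is independent support.

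UMIs were summed per class and library and scaled to CPM. Ratios carry exact conditional (Clopper-Pearson) intervals and shares exact binomial ones, for counting error only. A count of 0 was set to a floor of 3 counts over the group. No test was run, since each group has 1 library. Named genes were all rule and marker genes, 10 highest and 10 lowest mean log2 ratios to marker-low cells, 8 and 8 to matrix-high cells, 8 and 8 by sort, up to 4 per list, and a fixed set including Pax3, Six2 and Igf2; mitochondrial, ribosomal, haemoglobin, Gm and Rik genes were left out. Other genes given as examples of a list, and the comparison by Meg3, were chosen after their values were seen. Thinning used 5000 UMIs per cell. The ratio and interval code was tested on simulated counts. Positions are GRCm38. The work used scanpy 1.11.5 and scikit-learn 1.9.0 with scipy 1.17.1, numpy 2.4.6 and pandas 2.3.3 under Python 3.11.15. Alternatives are given in the closing section.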

Additional observations from a re-analysis of the deposited data

Results flagged for a closer look

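Klf2, a Krüppel-like transcription factor, moved in opposite directions between the libraries for members against marker-low cells: its log2 ratio was 0.96 in the GFP+ library and -0.85 in the GFP- library. The difference was not tested. Of its 147 UMIs in GFP+ members, 120 came from the 1 fibroblast-gene cell, and without such cells the ratios were 0.484 (0.299 to 0.762) and 0.547 (0.452 to 0.660), both below 1.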

How the results depend on the processing

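No paired analysis was possible because each group has 1 library and the labels give no replicate numbers. The share of members rested on the marker rule. With a marker sum of 10 or more it was 7.28% (GFP+) and 9.36% (GFP-), with Plagl1 left out of the sum 9.60% and 11.6%, with Gpc3 left out 10.4% and 16.6%, and with Gxylt2 left out 14.1% and 18.7%. A mitochondrial limit of 5% gave 19.5% and a matrix limit of 15 gave 21.4% in GFP-. Counts against marker-low cells stayed within 1.5 times under the other cell choices and scalings, and filters moved them by construction: at 50 CPM or more 72 genes were higher and 75 lower, and without a filter 439 and 648. Against matrix-high cells the same filters gave 181 and 203, and 830 and 954. Between fractions they gave 24 and 6, and 1284 and 475. The count lower in GFP+ members was 63 at a marker sum of 10, and 36, 47 and 24 with Plagl1, Gpc3 and Gxylt2 left out; the count higher was 86 with means of per-cell values. The cause of these shifts was not tested.

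Of 3809 gene values under 13 alternatives, 3151 stayed within their counting interval, 640 moved beyond it and 18 reversed. The settings differed widely. For members against marker-low cells, 115 of 234 values moved and 3 reversed with Plagl1 left out. At a marker sum of 10 or more 108 moved and 4 reversed. With means of per-cell values 88 moved, and with Gpc3 left out 86. With scrublet calls removed, or with at least 3 marker UMIs, all 234 stayed the same. In GFP+ against marker-low cells, a marker sum of 10 gave log2 ratios of -0.53 (Ccl11), -0.18 (Peg10), -0.063 (Nid2) and -2.44 (Klf2). Leaving out Plagl1 gave -0.92 (Ccl11) and -2.22 (Klf2), with 0.011 for Klf2 in GFP-. Klf2 was -0.35 at a matrix limit of 15 and -1.05 without fibroblast-gene cells. Against matrix-high cells Ccl11 in GFP+ was -0.17 without Plagl1 and -2.20 at a matrix limit of 15. Between fractions, leaving out Plagl1 gave -1.89 (Dcn), -2.0 (Lum), -2.10 (Olfr1369-ps1) and -1.14 (Klf2). The sort log2 ratio of Klf2 was also -1.23 at a marker sum of 10, -0.59 at a matrix limit of 15 and -0.66 without fibroblast-gene cells. Removing fibroblast-gene cells, chosen after seeing the data, gave 124 and 127 genes against marker-low cells and 44 and 21 between fractions; removing endothelial and glial-gene cells gave 126 and 122. With 107 GFP+ members and 1 library per group, depth and library limit every ratio.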
